A study of Mus musculus with 36 samples.

Results

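The genes described here make up the protein synthesis machinery outside the ribosome: the initiation factors, the elongation factors and the tRNA synthetases. They were taken by symbol from spots with a single gene name, as names beginning with Eif1 to Eif6, with Eef1 or Eef2, or made of a capital letter and "ars" with or without a final 1 or 2. Of 6971 named genes on the array 74 matched, on 155 spots. They comprised 42 initiation genes, 8 elongation genes and 24 synthetases. By symbol alone 9 synthetases, ending in 2, were counted as mitochondrial and the other 15 as cytosolic. An enzyme that serves both places is thus counted as cytosolic if its symbol lacks the 2. The rule also takes in regulators that carry a factor's name, such as the kinases Eif2ak1, Eif2ak4 and Eef2k. Values passed the limit on missing spots for 73 of the 74, and Vars2, the mitochondrial valine enzyme, did not, having no value at day 35.

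RNA of whole lungs from BALB/c mice kept at 0.5 atm for 1, 3, 7, 14 or 21 days was set against RNA of control lungs of the same time point, on cDNA arrays with 2 dyes. Further mice spent 21 days at 0.5 atm and then 1, 3, 7 or 14 days at sea-level pressure, here days 22, 24, 28 and 35, again against controls of the same day. Every RNA was a pool of 5 mice, each of the 9 time points had 4 arrays, and age and sex are not given in the sources used here. The labels do not say whether a day's 4 arrays hold separate pools, so the p-values of single days cover the scatter of these arrays alone, and that scatter may be technical. The value throughout is the log2 ratio of exposed over control lung, averaged over the spots of a gene. Positive values are read as more RNA in exposed lung, a likely direction whose basis is that the protocol names exposed sample and Cy5 first, control and Cy3 second. In whole lung, fewer cells of a type and less RNA per cell cannot be told apart.

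Translation begins when initiation factors load the small ribosomal subunit with the initiator tRNA and bring it to the capped end of an mRNA. The eIF4 proteins bind the cap and unwind the leader, eIF2 carries the initiator tRNA, eIF2B recharges eIF2 with GTP, and the large eIF3 complex holds the parts together. Elongation factors then deliver charged tRNAs and move the ribosome along, and the synthetases attach each amino acid to its tRNA. Phosphorylation of eIF2 under stress slows general initiation, and low oxygen is known to restrain cap-dependent initiation through mTORC1.

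The 36 arrays held values for 14186 to 15042 spots, with array medians between -0.02 and 0.05 and array SDs between 0.17 and 0.52, the widest being replicate 1 of day 28. Across features, arrays within replicates 1 and 2 or within replicates 3 and 4 of a day correlated with a median r of 0.69, against 0.29 between these pairs, and the latter value was -0.04 at day 21 and -0.15 at day 22. For the translation genes alone the medians were 0.68 and 0.35. The pairs are therefore also described separately. Ratios hold no levels, so the presence of lung cell types could not be checked. Over the hypoxia phase the ratios of 4 of 5 measured erythroid markers were higher (range of the list 0.04 to 0.99), as were those of 2 of 2 endothelial markers (0.27 to 0.66) and 2 of 6 proliferation markers (-0.06 to 0.50). Of 5 smooth muscle and fibroblast markers 2 were higher and 1 was lower (-0.84 to 0.64), of 3 epithelial markers 1 was higher and 1 lower (-0.18 to 0.16), and of 2 leukocyte markers S100a9 was lower (-1.51). These calls are at an adjusted p under 0.05 (limma), where 24.7% of all features were higher and 17.7% lower. The part of these cell types in the results was not tested.

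During hypoxia more initiation genes were lower than higher. The 1 elongation gene that passed was higher, and synthetases had more higher than lower calls, as did all features. Tested as the mean of the 5 hypoxia days against 0 with limma, 12 of the 73 translation genes were higher and 18 lower at an adjusted p under 0.05. Over all features 24.7% were higher and 17.7% lower, 42.4% in either direction, so the number of changed translation genes was near the background. No dye swap is given in the sources used here. Any test against 0 therefore cannot tell a steady dye difference of a gene from an effect of exposure. By role, 6 of 42 initiation genes were higher and 15 lower (median -0.04), 1 of 8 elongation genes was higher and none lower (median 0.07), and 5 of 23 synthetases were higher and 3 lower (median 0.01), against a median of 0.03 over all features. The largest departures among the 18 lower genes fell on day 7 for 7 of them, on day 14 for 8 and on day 1 for 3. Among the 12 higher genes they fell on day 7 for 7, on day 3 for 4 and on day 1 for 1.

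**Figure D1:**
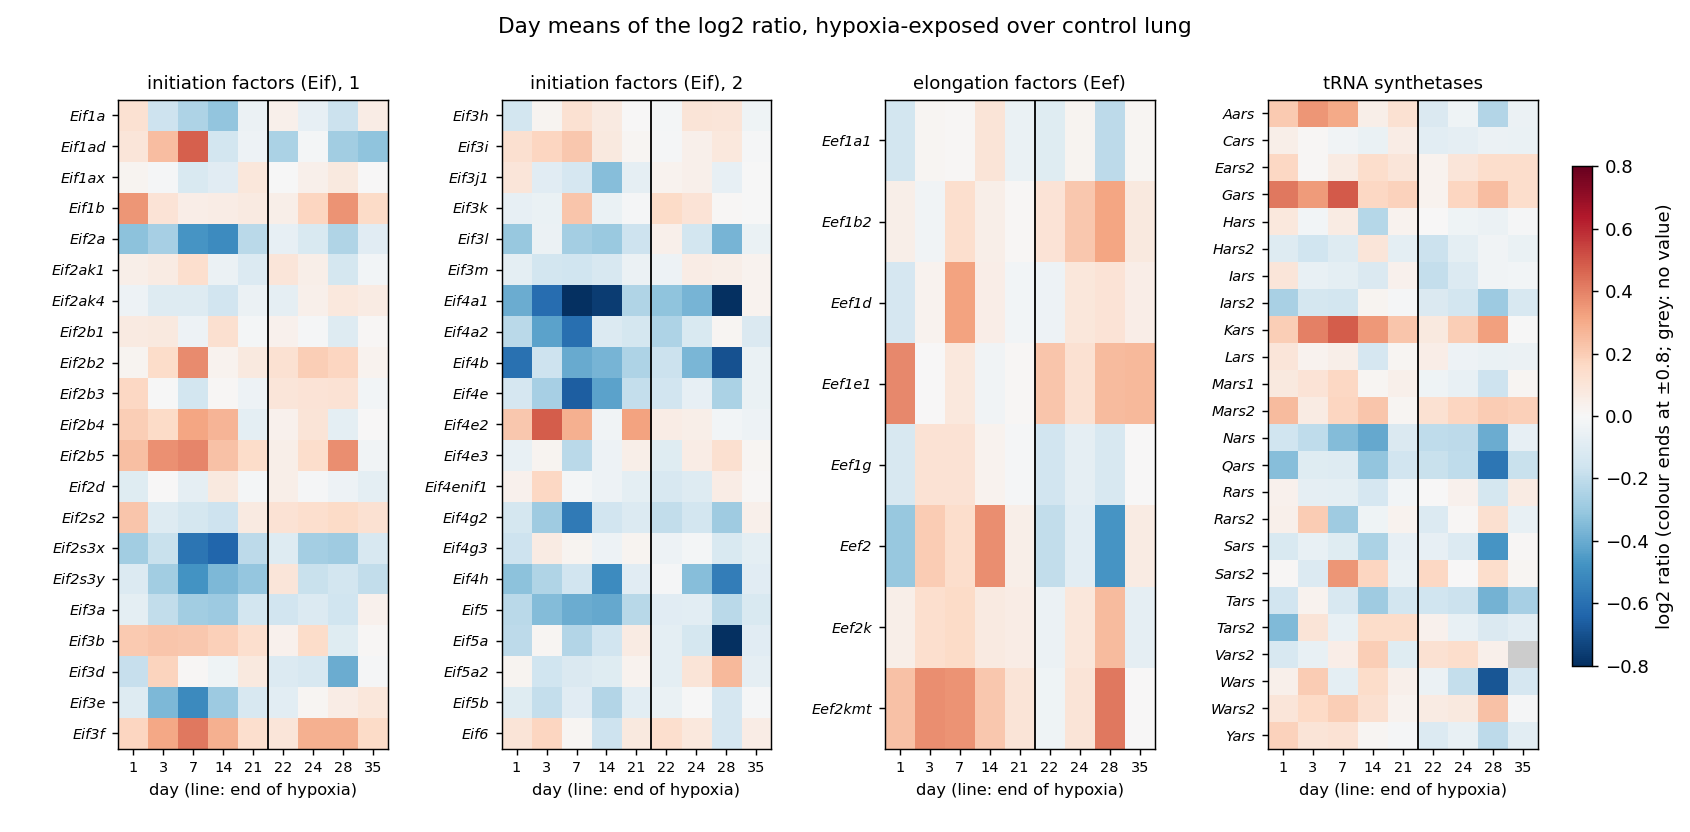
Each cell is the mean log2 ratio of exposed over control lung at one day, with genes as rows in separate panels for the 3 roles and days as columns; the line marks the return to sea-level pressure. Blue and red mark lower and higher ratios, grey no value. Eif4a1 reaches -1.03 at day 7, and many initiation genes that are low at days 7 and 14 lie close to 0 at day 35.

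The eIF4 group, which recognises the cap, held the largest change. Of its 10 genes 6 were lower over the hypoxia phase and 1, Eif4e2, was higher, with a group median of -0.26. The shares over all features were 17.7% lower and 24.7% higher. Eif4a1, the RNA helicase that unwinds mRNA leaders, was at -0.39, -0.61, -1.03, -0.76 and -0.24 at days 1, 3, 7, 14 and 21. Its single arrays at day 7 read -1.09, -1.14, -1.16 and -0.72, and all 20 hypoxia arrays lay below 0. The mean of -0.61 ± 0.31 (SD, n = 5 time points) is a ratio of 0.657 of control (limma, adjusted p = 0.0020). All 4 spots of the gene were lower, between -0.67 and -0.42. Eif4e, the protein that binds the cap itself, read -0.68, -0.70, -0.67 and -0.60 on the arrays of day 7 and averaged -0.34 ± 0.21 over the phase (adjusted p = 0.0024). It too was below 0 on 20 of 20 arrays, on 4 of 4 spots and in both replicate pairs (-0.32 and -0.35).

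Eif4g2, a relative of the eIF4G scaffold that lacks the site for eIF4E, was lower at 7 single days, more than any other gene of the set, though the calls at days 1, 14, 22 and 24 were lost with at least 1 replicate left out. Its 4 arrays read -0.56, -0.60, -0.60 and -0.49 at day 7, -0.34, -0.35, -0.25 and -0.20 at day 28, and 0.05, -0.02, 0.04 and 0.08 at day 35. The arrays of day 35 therefore did not overlap those of day 7 or day 28. Its 5 spots ranged from -0.59 to 0.10, so 1 spot did not share the direction. Eif4b, a helper of the helicase, averaged -0.36 ± 0.17 and was lowest at day 1 among the hypoxia days, where the arrays read -0.65, -0.41, -0.59 and -0.74. Eif4a2, a close paralogue of Eif4a1, averaged -0.30 ± 0.21, with -0.64, -0.96, -0.41 and -0.41 on the arrays of day 7. Cross-hybridisation between the 2 helicase cDNAs was not tested.

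The remaining changed eIF4 genes were less even. Eif4h, another helicase helper, averaged -0.26 ± 0.16 (adjusted p = 0.015), but its 2 spots stood at 0.36 and -0.89, so the sign depends on which spot is read. Without day 14 the mean was -0.20 (adjusted p = 0.064). Eif4e2, a cap-binding homologue linked to repression and to translation at low oxygen, averaged 0.26 ± 0.19, yet this came from replicates 1 and 2 (0.46) rather than replicates 3 and 4 (0.05, adjusted p = 0.53). At day 3 its arrays ran from -0.21 to 1.34. Eif4e3 (-0.05), Eif4g3 (-0.02) and Eif4enif1 (0.01), which carries eIF4E into the nucleus, did not pass.

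**Figure D2:**
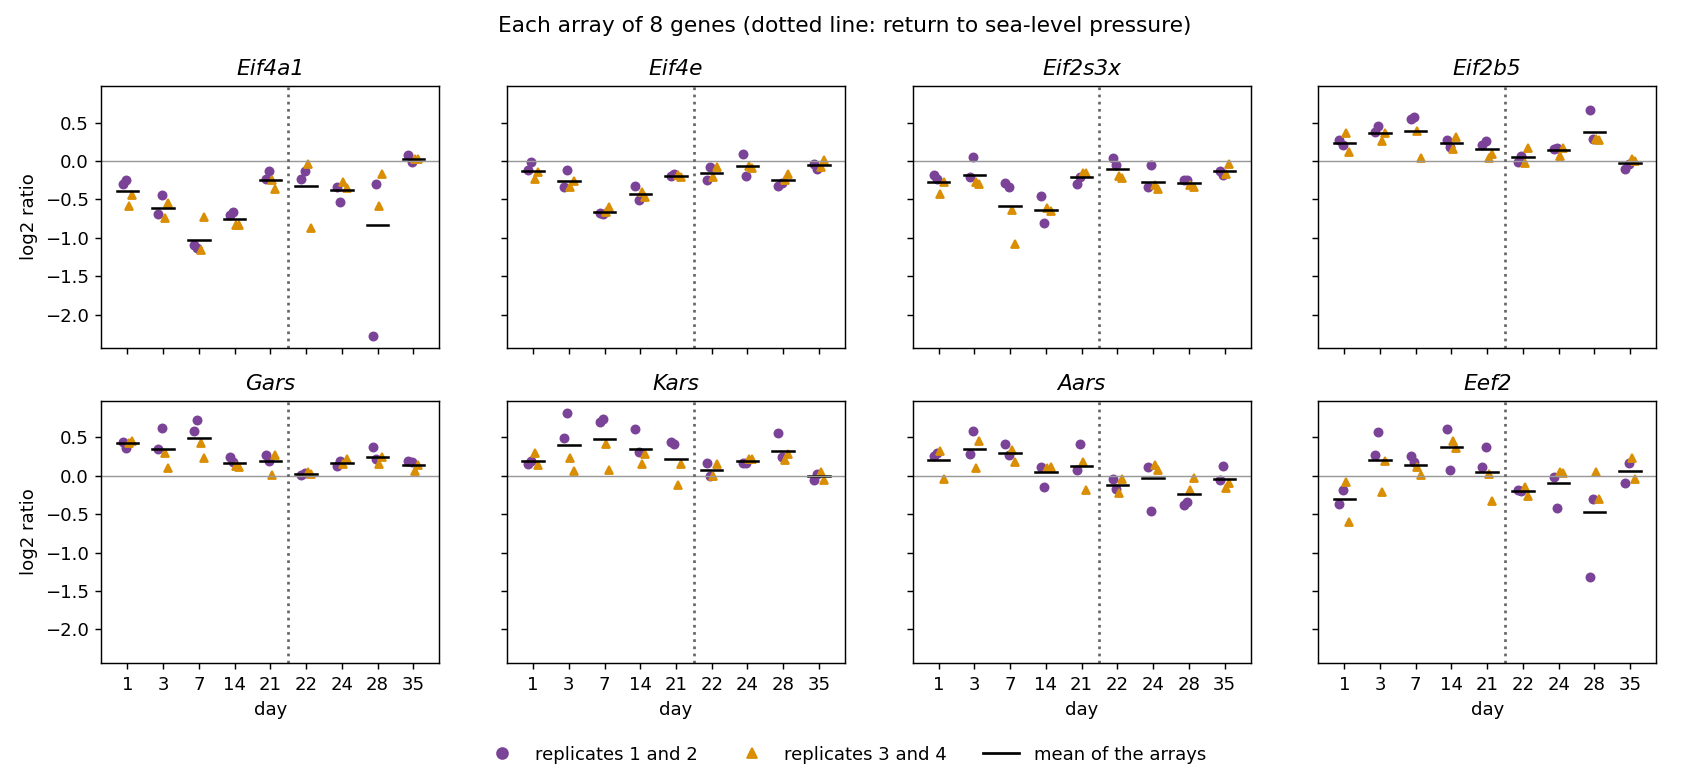
Points are the log2 ratios of single arrays (circles, replicates 1 and 2; triangles, replicates 3 and 4) for 8 genes at each of 9 days, with a bar for the mean of the arrays of a day and a dotted line at the return to sea-level pressure. Eif4a1 and Eif4e deepen to day 7 and lie near 0 by day 35, Gars is above 0 on every array drawn, and 1 array of day 28 stands far below the others for Eif4a1 and Eef2.

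The eIF2 genes and the eIF2B genes that passed lay on opposite sides of 0. The subunits of eIF2 and the related Eif2a and Eif2d had 3 of 5 genes lower and none higher, while eIF2B, which recharges eIF2, had 2 of 5 higher and none lower. The medians were -0.31 and 0.13, and over all features 24.7% were higher and 17.7% lower. Eif2s3x, the X-linked gamma subunit, averaged -0.38 ± 0.22 (adjusted p = 0.0014), with -0.45, -0.81, -0.62 and -0.65 on the arrays of day 14. Eif2s3y, its Y-linked partner, averaged -0.31 ± 0.14 (adjusted p = 0.0016), with -0.25, -0.34, -0.35 and -0.30 at day 21. The gamma subunit cDNAs are close in sequence and one may be read by the other's spot. Eif2a, which is not a subunit but can bring the initiator tRNA on its own, averaged -0.36 ± 0.12 (adjusted p = 0.00035) and was below 0 on 19 of 20 hypoxia arrays.

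Eif2b5, the catalytic subunit of eIF2B, moved the other way. Its arrays read 0.37, 0.46, 0.25 and 0.37 at day 3 and 0.55, 0.58, 0.39 and 0.05 at day 7, and all 20 hypoxia arrays were above 0. The mean was 0.28 ± 0.10 (adjusted p = 0.0028), and both spots and both replicate pairs (0.34 and 0.21) shared the sign. Eif2b4, a regulatory subunit, averaged 0.17 ± 0.15 (adjusted p = 0.022) with a day 21 mean of -0.08, and its adjusted p rose to between 0.051 and 0.092 when day 1, 3, 7 or 14 or replicate 3 was left out. Eif2b1 (0.04), Eif2b2 (0.13) and Eif2b3 (-0.00) did not pass. The eIF2 beta subunit Eif2s2 changed sign within the phase: its arrays were 0.18, 0.23, 0.14 and 0.36 at day 1 and -0.11, -0.16, -0.20 and -0.18 at day 14, without overlap, and both days passed. The call at day 1 was lost without replicate 4 (adjusted p = 0.10) and that at day 14 with any 1 replicate left out (0.072 to 0.18). The 4 spots of Eif2s2 lay between -0.17 and 0.12 over the phase, 2 of them above 0. The eIF2 kinases Eif2ak1, which responds to heme, and Eif2ak4, which senses uncharged tRNA, averaged 0.02 and -0.09 and did not pass.

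The eIF3 complex, a scaffold of many subunits, showed both directions. Of 11 genes 3 were higher (24.7% of all features) and 4 lower (17.7%), with a median of 0.01. Eif3f averaged 0.26 ± 0.11 (adjusted p = 0.0016), Eif3b 0.19 ± 0.04 and Eif3i 0.12 ± 0.08. The Eif3f value came from replicates 1 and 2, which gave 0.50 against 0.03 in replicates 3 and 4. At day 7, for example, its arrays read 0.71, 0.72, 0.11 and 0.14, with no overlap between the pairs. On the lower side Eif3a, the largest subunit, averaged -0.20 ± 0.09 and Eif3m -0.11 ± 0.05. Eif3e (-0.28 ± 0.17) and Eif3l (-0.22 ± 0.11) complete the 4 and are named after their values were seen, outside the naming rule. Eif3e read -0.55, -0.64, -0.58 and -0.26 on the arrays of day 7, and its recovery mean was 0.02. Eif3i lost its call without day 1, 3 or 7 or replicate 1 or 2 (adjusted p between 0.059 and 0.28), and Eif3m without day 3, 7 or 14 or replicate 2 (0.059 to 0.077). The 8 spots of Eif3a lay between -0.70 and 0.04, with a median of -0.03 and 2 of them above 0. The mean of this gene thus rests on its lower spots.

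Of the factors that finish initiation, Eif5, which triggers GTP hydrolysis on eIF2, had the lowest adjusted p of the set over the phase. Its day means were -0.22, -0.35, -0.40, -0.41 and -0.22, all 20 hypoxia arrays were below 0, and the mean was -0.32 ± 0.09 (adjusted p = 0.00033). Eif5b, which joins the ribosomal subunits, averaged -0.14 ± 0.07 (adjusted p = 0.012), and Eif5a, Eif5a2 and Eif6 did not pass. None of the 4 Eif1 genes passed over the phase. Eif1b was nevertheless higher at day 1 (0.35) and day 28 (0.36), and Eif1a was lower at 4 single days. Over hypoxia the 4 spots of Eif1a lay between -0.30 and 0.18, and the 3 spots of Eif5b between -0.29 and 0.005. Among the 21 initiation genes that did not pass, phase means lay between -0.13 and 0.13.

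**Figure D3:**
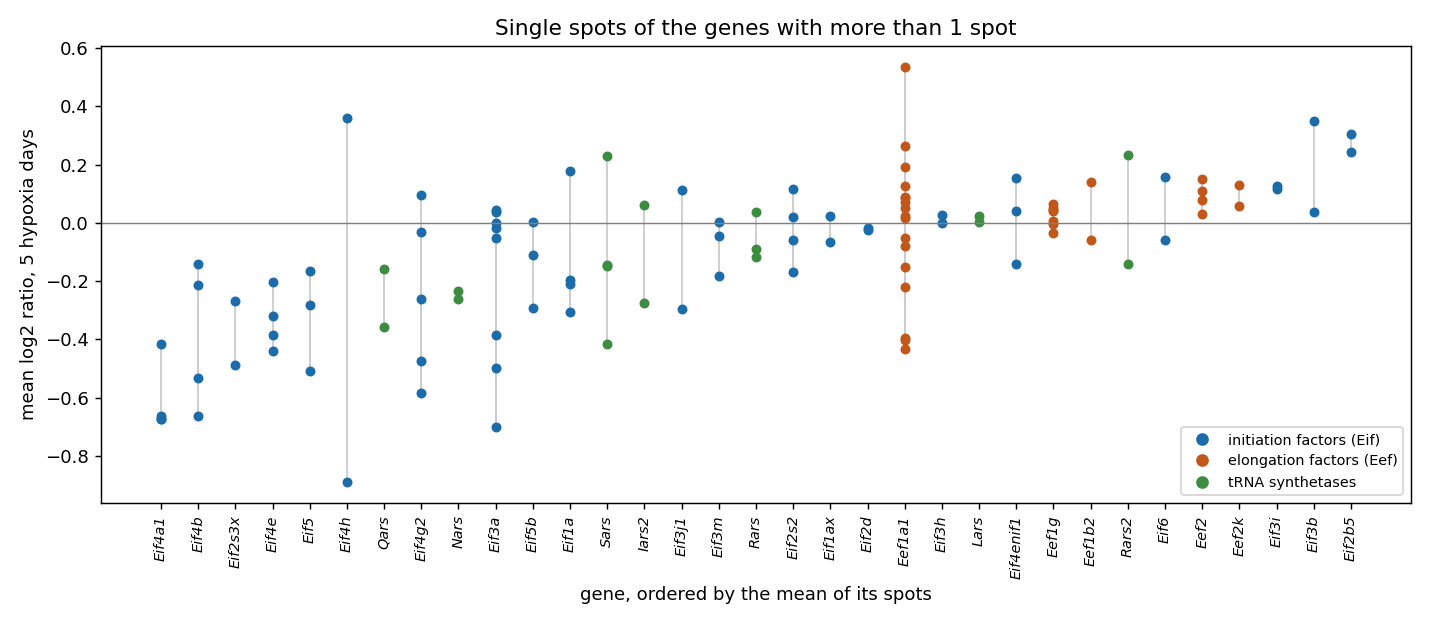
Each point is the mean log2 ratio over the 5 hypoxia days of one spot, for the genes with more than 1 spot, ordered by the mean of the spots; vertical lines join spots of a gene. All spots of Eif4a1, Eif4e, Eif5 and Nars lie below 0, while those of Eif4h, Eif3a, Sars and Eef1a1 lie on both sides.

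Spots of one gene are a check on the averages above. Of 33 genes with more than 1 spot, 19 had spots on both sides of 0 over the hypoxia phase. Eef1a1, the abundant factor that delivers charged tRNA, had 17 spots between -0.43 and 0.54, and copies of this gene elsewhere in the genome may share them. Sars, the serine synthetase, had 4 spots between -0.41 and 0.23. Of Rars2, the mitochondrial arginine enzyme, 1 spot stood at 0.23 and the other at -0.14.

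Of the 8 elongation genes, Eef2kmt, a methyltransferase that modifies eEF2, was the one to pass over the hypoxia phase, and Eef1e1, Eef1d and Eef2 passed at single hypoxia days. Its arrays read 0.25, 0.19, 0.49 and 0.55 at day 3 and 0.36, 0.38, 0.50 and 0.21 at day 7, and all 20 were above 0. The mean was 0.26 ± 0.11 (adjusted p = 0.0066), and in replicates 1 and 2 alone the adjusted p was 0.063. Eef2, the translocase that moves the ribosome, varied by day: its arrays were 0.62, 0.07, 0.45 and 0.36 at day 14 and -1.32, -0.30, 0.04 and -0.31 at day 28. Both days passed, in opposite directions, and the phase mean of 0.09 ± 0.25 did not. Without replicate 1 the Eef2 mean at day 28 was -0.19 (adjusted p = 0.40), and at day 14 the adjusted p was 0.11 to 0.12 without replicate 1, 3 or 4. Eef2k, the kinase that blocks eEF2, averaged 0.09 over hypoxia and was higher at day 28 (0.25), where the adjusted p was 0.11 without replicate 1.

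Of the eEF1 complex, Eef1a1 (-0.02), Eef1b2 (0.04), Eef1d (0.05) and Eef1g (0.02) did not pass over hypoxia. Eef1e1, a small protein of the multisynthetase complex, was higher at day 1 on every array (0.54, 0.26, 0.28 and 0.46) and returned to 0.00 at day 3. It was higher again at days 28 and 35, reading 0.28, 0.31, 0.22 and 0.22 at day 35 (adjusted p = 0.030). With any 1 replicate left out its adjusted p at day 35 lay between 0.13 and 0.18, and at day 28 it was 0.12 without replicate 1 and 0.055 without replicate 4. Eef1b2, a nucleotide exchange subunit, was above 0 on all 16 recovery arrays and passed at days 24 (0.22) and 28 (0.31), the former with an adjusted p of 0.072 to 0.29 when 1 replicate was left out. Eef1d passed at day 7 alone (0.32), with an adjusted p of 0.051 without replicate 4.

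Among the synthetases calls went both ways, in numbers below the shares of all features. The enzymes for lysine, glycine and alanine (Kars, Gars and Aars) were higher in hypoxia, as were the mitochondrial Mars2 and Wars2, and those for asparagine, glutamine and threonine (Nars, Qars and Tars) were lower. Gars read 0.44, 0.37, 0.43 and 0.46 at day 1 and 0.59, 0.73, 0.42 and 0.23 at day 7. All 20 hypoxia and all 16 recovery arrays were above 0, and the hypoxia mean was 0.32 ± 0.14, a ratio of 1.25 (adjusted p = 0.00091). Kars averaged 0.33 ± 0.12 (adjusted p = 0.00098), with 0.70, 0.74, 0.42 and 0.08 on the arrays of day 7, and was larger in replicates 1 and 2 (0.49) than in replicates 3 and 4 (0.17). Aars averaged 0.21 ± 0.13 (adjusted p = 0.0062). It was higher at days 3 and 7 and lower at day 28, where its arrays read -0.38, -0.35, -0.19 and -0.02. The call at day 7 was lost without replicate 1 or 3 (adjusted p = 0.091 and 0.058), and that at day 28 without replicate 1, 2 or 3 (0.075 to 0.32).

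The promoters of Gars, Aars and Tars are printed because they are the synthetase promoters that hold the TGATGNAAN motif, through which ATF4 and its partners are known to act. They cover the 250 bases before the transcription start in RefSeq for GRCm38.p6, written in the direction of the gene, with capitals for the motif, which in each of them lies on the opposite strand, and for CACGTG, the E-box, in Aars.
Gars, chr6:55037751-55038000, plus strand: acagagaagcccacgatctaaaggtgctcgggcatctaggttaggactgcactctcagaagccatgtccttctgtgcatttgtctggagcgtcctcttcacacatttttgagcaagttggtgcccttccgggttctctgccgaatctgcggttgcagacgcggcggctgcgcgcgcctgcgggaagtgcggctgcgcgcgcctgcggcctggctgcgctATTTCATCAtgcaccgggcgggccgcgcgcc
Aars, chr8:111033592-111033841, plus strand: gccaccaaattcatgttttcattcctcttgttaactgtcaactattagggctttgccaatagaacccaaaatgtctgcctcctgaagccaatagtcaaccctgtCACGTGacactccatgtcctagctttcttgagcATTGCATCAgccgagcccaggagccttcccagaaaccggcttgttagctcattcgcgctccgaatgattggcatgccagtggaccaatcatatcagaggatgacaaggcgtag
Tars, chr15:11399659-11399908, minus strand: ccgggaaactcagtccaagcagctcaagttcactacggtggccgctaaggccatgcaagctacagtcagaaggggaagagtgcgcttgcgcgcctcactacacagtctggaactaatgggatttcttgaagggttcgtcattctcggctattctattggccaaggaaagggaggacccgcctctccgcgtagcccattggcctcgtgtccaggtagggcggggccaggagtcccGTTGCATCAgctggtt

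Both strands were searched for TGATGNAAN and CACGTG in the promoter table, which held 72 promoters of 57 of the translation genes. TGATGNAAN was in 3 of 17 synthetase promoters (17.6%), in 1 of 47 initiation promoters (Eif2s3x) and in 1 of 8 elongation promoters (Eef2k), against 3.4% of all promoters in the table. Of the genes whose promoters are printed Gars and Aars were higher in hypoxia, and Tars was called lower with opposite signs in the replicate pairs (0.17 and -0.51). CACGTG was in 10 of 47 initiation promoters (21.3%), 2 of 8 elongation promoters and 2 of 17 synthetase promoters, against 6.0% of all promoters. By call it was in 3 of 16 promoters of lower genes (18.8%; Eif4a1, Eif4e and Eif4h), in 2 of 13 of higher genes (15.4%; Eif3f and Aars) and in 9 of 43 of genes that did not pass (20.9%). A match is a description of these letters and not evidence of a bound factor.

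Nars, Qars, Tars, Mars2 and Wars2 each lost their call in one replicate pair or both, Mars2 being lower in replicates 1 and 2. Nars averaged -0.25 ± 0.13 (adjusted p = 0.0041) with both spots lower and with -0.17 (adjusted p = 0.12) and -0.32 in the pairs, and read -0.38, -0.61, -0.31 and -0.35 at day 14. Qars averaged -0.20 ± 0.12 (adjusted p = 0.021), with -0.08 (adjusted p = 0.65) and -0.32 in the pairs, but its arrays at day 3 ran from -0.72 to 0.86, and its adjusted p was 0.12 without replicate 3, 0.18 without replicate 4, 0.079 without day 1 and 0.075 without day 14. Tars averaged -0.14 ± 0.11 (adjusted p = 0.040), made of 0.17 in replicates 1 and 2 and -0.51 in replicates 3 and 4. At day 7 its arrays read 0.20, 0.71, -0.44 and -0.98. Its call was lost in 8 of 13 fits that left out a day or a replicate, with an adjusted p of 0.56 without replicate 4 and 1.00 without replicate 3. Mars2, the mitochondrial methionine enzyme, showed the reverse, with -0.20 and 0.49 in the pairs and a mean of 0.14 ± 0.10. Its adjusted p was 0.52 without replicate 3, 0.86 without replicate 4, 0.063 without day 1 and 0.057 without day 14. Wars2, for mitochondrial tryptophan, averaged 0.12 ± 0.06 (adjusted p = 0.039) and likewise lost its call in 8 of those 13 fits, with 0.31 without replicate 2 and 0.083 without replicate 4.

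The other 15 synthetases tested had hypoxia means between -0.12 and 0.09. Those counted as cytosolic were Cars (0.01), Hars (-0.01), Iars (-0.02), Lars (0.01), Mars1 (0.08), Rars (-0.05), Sars (-0.12), Wars (0.07) and Yars (0.08). Those counted as mitochondrial were Ears2 (0.09), Hars2 (-0.07), Iars2 (-0.11), Rars2 (-0.01), Sars2 (0.08) and Tars2 (-0.00). Of the 15 enzymes counted as cytosolic 3 were higher and 3 lower (median 0.01). Of 8 tested and counted as mitochondrial 2 were higher and none lower (median 0.04). Over all features 24.7% were higher and 17.7% lower, and the cytosolic and mitochondrial enzymes were not compared by a test. Vars2, not tested, had day means between -0.13 and 0.19 in hypoxia on the arrays that held a value.

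**Figure D4:**
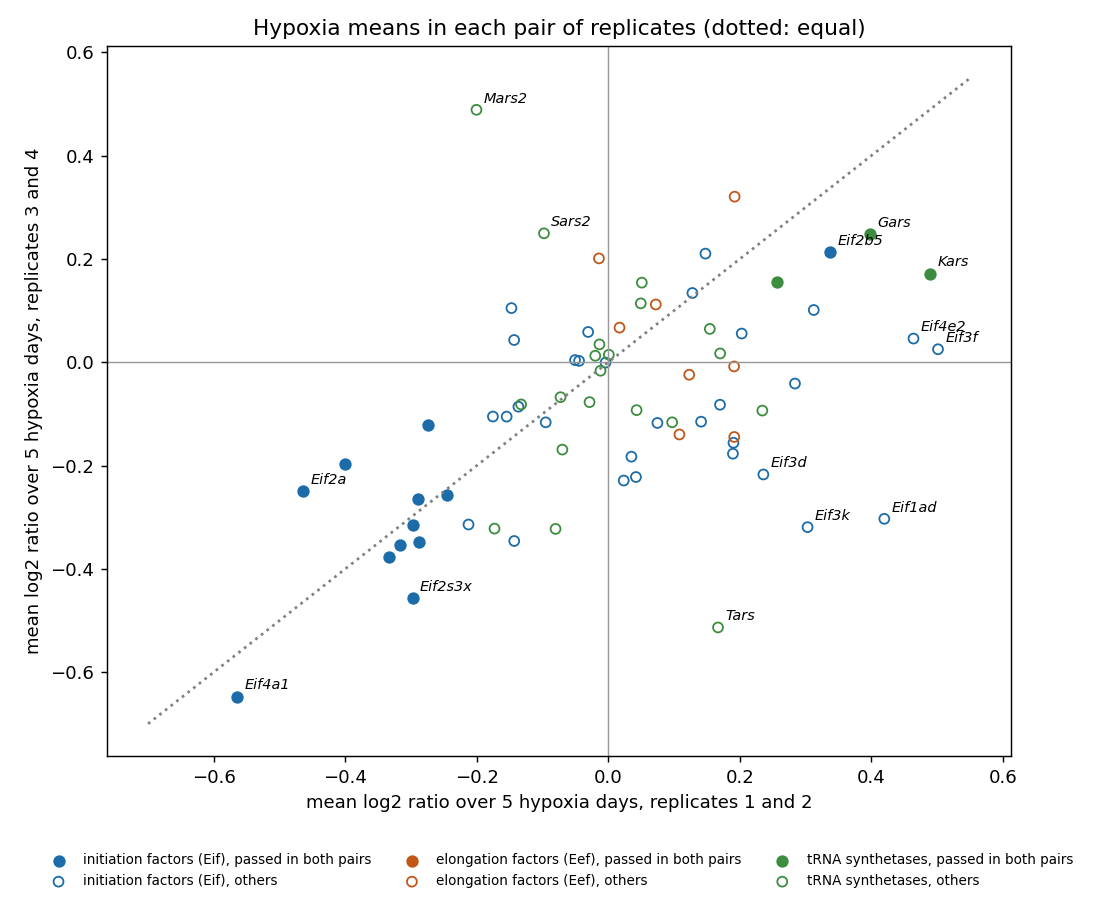
Each point is a gene, with its mean log2 ratio over the 5 hypoxia days in replicates 1 and 2 on the horizontal axis and in replicates 3 and 4 on the vertical axis; filled points passed in both pairs and the dotted line marks equal values. The filled initiation genes sit in the lower left except Eif2b5, and Tars and Mars2 lie far from the line in opposite quadrants.

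The replicate pairs separate the changes found in both from those found in one. Of the 73 genes 30 passed over hypoxia. Those that also passed in each pair alone were 15 of the 73, against 15.6% of all features. Lower in both were 11 of the 73 (7.87% of all features), which were initiation genes: Eif4a1, Eif4a2, Eif4b, Eif4e, Eif4g2, Eif2a, Eif2s3x, Eif2s3y, Eif3a, Eif3e and Eif5. Higher in both were 4 (7.68% of all features), Eif2b5, Gars, Kars and Aars. Among those called in one pair, Eif3b stood at 0.31 and 0.10 (adjusted p = 0.094 in the latter) and Eif3l at -0.14 (adjusted p = 0.23) and -0.35. Of all 73 genes 30 had opposite signs in the pairs, against 43.2% of all features, among them Eif1ad (0.42 and -0.30), Eif3k (0.30 and -0.32) and Eif3d (0.24 and -0.22), none of which passed over the phase and which are named after their values were seen. What differed between the pairs is not given in the sources used here.

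After return to sea-level pressure few of these genes stood apart from their controls as a phase. Over the 4 recovery days 2 of 73 were lower and none higher, against 3.12% of all features lower and 1.65% higher, 4.77% in either direction. At an unadjusted p under 0.05 the limma count was 26 of 73, against 29.9% of all features. Qars averaged -0.29 ± 0.20 (adjusted p = 0.045) and Tars -0.24 ± 0.10 (adjusted p = 0.039). Both calls were lost without day 28 (adjusted p = 0.19 for Qars and 0.17 for Tars) and without day 3, 22 or 24. Qars also lost its call without day 1, 14 or 21 or replicate 1, 3 or 4 (adjusted p between 0.052 and 0.076), and Tars without day 35 or replicate 3 or 4 (0.059 to 0.14). Scaling the arrays to a common spread gave 9 higher and 13 lower in recovery, against 26.3% of all features in either direction. The count thus depends on how arrays are weighted.

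More genes passed at day 28 than at the other recovery days. There 9 were higher (19.4% of all features) and 20 lower (14.3%), with 33.7% of all features changed. Day 22 had 0 higher (0.842%) and 1 lower (0.799%), 1.64% in either direction. Day 24 had 1 higher (0.868%) and 3 lower (2.32%), 3.19% in either direction. Day 35 had 1 higher (1.94%) and 0 lower (1.42%), 3.36% in either direction. Eif4b read -0.89, -0.54, -0.46 and -0.91 (adjusted p = 2.9e-06), Eif4h averaged -0.55 and Eif4g2 -0.29. Wars, for tryptophan, read -1.03, -0.42, -0.48 and -0.80 at day 28 after a hypoxia mean of 0.07. Eef2kmt (0.42) and Eif2b5 (0.37) were again among the higher genes. Replicate 1 carried the extremes: Eif4a1 read -2.28, -0.30, -0.59 and -0.18, Eif5a -1.84, -0.30, -0.42 and -0.62, and Qars -1.41, -0.37, -0.06 and -0.48. Without that replicate 17 genes passed, against 15.8% of all features. Eif4a1 (-0.36, adjusted p = 0.045), Eif5a (-0.45) and Wars (-0.57) still passed, and Qars (-0.30, adjusted p = 0.36), Kars, Gars and Aars did not.

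Within hypoxia the counts were highest at days 7 and 14, as were those of all features, and fell off at day 21. At day 1, 6 genes were higher (11.5% of all features) and 9 lower (9.76%), 21.3% in either direction. At day 3 there were 7 higher (13.9%) and 13 lower (10.6%), 24.5% in either direction. At day 7 there were 10 higher (21.3%) and 16 lower (16.1%), 37.5% in either direction. At day 14 there were 6 higher (16.4%) and 18 lower (12.7%), 29.1% in either direction. At day 21 there were 0 higher (2.36%) and 3 lower (2.47%), 4.84% in either direction. The genes at day 21 were Eif5 (-0.22), Eif4e (-0.19) and Eif2s3y (-0.31). With any 1 replicate left out at most 1 gene passed there (1.64% to 2.85% of all features). Eif5 was lower at 6 days, Eif2a, Eif4b, Eif4e and Eif4h at 5, and Eif2b5, Eef2kmt and Gars were higher at 5. Of the 123 calls at single days 60 were lost with at least 1 replicate left out. The matching share over all features was not counted, so this is no trait of the translation genes. The gene called at day 22 was Eif4g2, which read -0.23, -0.20, -0.21 and -0.16 (adjusted p = 0.0066, and 0.056 to 0.18 with 1 replicate left out). Day 1 gave 8 genes without replicate 3 (10.4% of all features) and 9 without replicate 4 (10.3%). Day 3 gave 13 without replicate 1 (18.0%) or replicate 3 (16.9%). Day 24 gave at most 1 with any 1 replicate left out (0.542% to 1.08%).

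**Figure D5:**
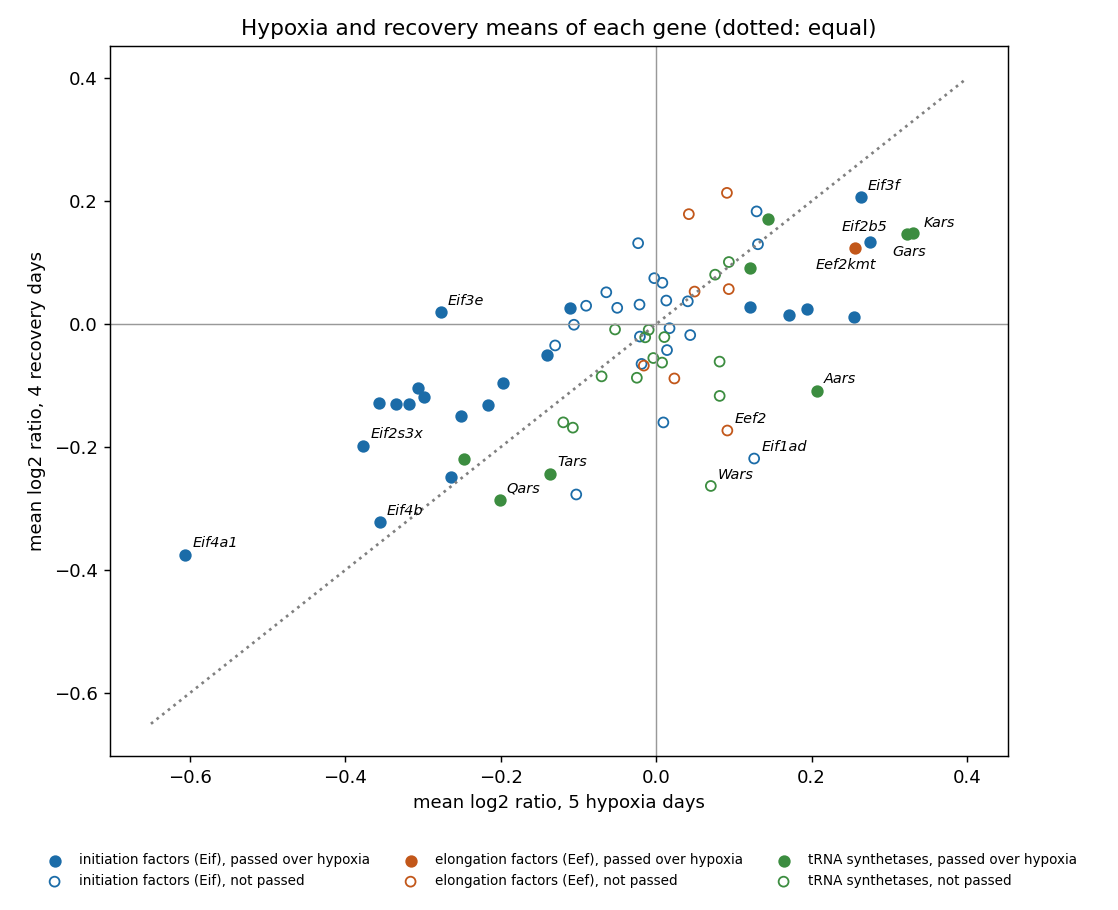
Each point is a gene, with its mean log2 ratio over the 5 hypoxia days on the horizontal axis and over the 4 recovery days on the vertical axis; filled points passed over hypoxia and the dotted line marks equal values. The filled points were chosen on their hypoxia mean, and 27 of the 30 lie nearer 0 in recovery, against 93.1% of all features so chosen. Aars and Eif1ad are above 0 in hypoxia and below 0 in recovery, and Qars and Tars are lower in recovery.

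No translation gene passed the test of hypoxia against recovery, where 4 features (0.0329%) did. At an unadjusted p under 0.05 the limma count was 14 of 73, against 15.2% of all features, and the lowest adjusted p, 0.11, was that of Aars (0.21 in hypoxia and -0.11 in recovery). Fitting arrays singly, which treats the arrays of a day as independent, gave 13, against 11.1% of all features. The return toward 0 in recovery seen for Eif4e (-0.34 and -0.13), Eif5 (-0.32 and -0.13) and Eif3e (-0.28 and 0.02) is thus a description of means and was not shown by this test.

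Other genes of translation, listed by pathway, moved in small numbers over hypoxia. Of 10 measured genes of mTORC1 and 4E signalling 2 were higher, Akt1s1 (0.19) and Larp1 (0.12), and 2 lower, the eIF4E kinase Mknk2 (-0.38) and Sesn1 (-0.20), while Mtor itself was at -0.04. Of 7 genes of the integrated stress response 3 were higher, Trib3 (0.29), Ppp1r15a (0.22), which guides the phosphatase for eIF2, and Gcn1 (0.20). The ATF4 gene itself, Atf4, and its target Asns were both at 0.03 and did not pass. Of 10 genes of termination, mRNA binding and quality control 2 were higher, Denr (0.24) and Pabpc1 (0.12), and 1 lower, the inhibitor Paip2 (-0.37). Of 7 further genes of tRNA charging, not all of them synthetases, Aimp2 (0.17) and Qrsl1 (0.14) were higher and Eprs (-0.13) lower. Of 5 mitochondrial factors Tufm, Tsfm and Mtif2 (each 0.20) were higher and Gfm1 (-0.22) lower. These lists are small and their shares span the background of 42.4%. Over recovery Mknk2 and Gfm2 were lower and Ppp1r15a higher, and no other gene of these lists passed.

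By shape over the 9 day means, the genes outside the set most like the median of each role were sought. For initiation these were C1galt1c1 (Pearson r = 0.95), Tmc8 (0.94) and Srp72 (0.93), for elongation Srgap3 (0.94), Tmed4 (0.94) and Mfsd1 (0.91), and for the synthetases Lpcat3 (0.93), Olfr887 (0.92) and Spag5 (0.92). All points share the same 9 time points and pools, and the match was picked from all measured genes.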

How the data were processed

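The authors deposited log2 ratios which, per the labels' protocols, came from slides read on a GenePix 4000A scanner with GenePix Pro 4.0, were background corrected, stripped of flagged spots and normalised by lowess. No dye swap and no genome build is given in the sources used here. These log2 values were used as they stand. Spots were named through the platform annotation: 9598 had 1 symbol, 514 several and 5276 none, the last 2 kinds staying unnamed features. The spots of each gene were reduced to their mean per array, giving 12761 features.

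Tests used limma 3.58.1 (lmFit, eBayes) in R 4.3.3, with Benjamini-Hochberg adjustment over all features and a threshold of 0.05. Phases were fitted on 9 day means, since the arrays of a day may be technical repeats of 1 pool, for features with at least 2 arrays at each day (12159). Single days were fitted on 36 arrays, for features with at least 3 of 4 arrays at each day (11517), and unless another test is named an adjusted p is limma's. Both fits were tested on simulated data with independent noise on each array. The grouping of the real arrays by replicate pair was not simulated. The members and gene lists were chosen with earlier results of these data known.

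Named genes are all elongation genes and synthetases; initiation genes that passed, up to 8 in each direction per phase and 3 per day with all arrays of 1 sign; genes called with both signs; genes whose spots differ in sign; and, where none qualifies, the 2 with the lowest p. Others are named to complete a role. For likeness, up to 3 genes per role were taken. Promoters come from RefSeq for GRCm38.p6. Alternatives were median centring, a common array spread, limits on missing values, single spots, arrays fitted singly, a replicate block, replicate pairs, and each day or replicate left out. For single spots the spot of lowest p stood for its gene. The precision is limited by 4 arrays a day.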

Additional observations from a re-analysis of the deposited data

Results flagged for a closer look

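Of 200 groups of day means or arrays examined for a value far from the rest of its group, 12 had one, and chance flags about 1 in 20 groups. No explanation was weighed. Among the hypoxia day means, day 1 stood above the other days for Eef1e1 (0.386) and Eif1b (0.352). Among the recovery day means, day 28 stood below the others for Eif5a (-0.797), Qars (-0.579) and Iars2 (-0.288), and day 22 stood above the others for Eif2s3y (0.0983) and Lars (0.0536). The Eif5a and Qars means rest in part on replicate 1 of day 28, without which they were -0.45 and -0.30.

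Within the arrays of a day, replicate 1 of day 1 was less negative than the others for Eif2a (-0.235), replicate 3 of day 3 was less negative for Eif4a2 (-0.229) and for Eif3e (-0.171), and replicate 4 of day 7 was less negative for Eif4a1 (-0.723). Replicate 1 of day 28 stood above the others for Eif2b5 (0.659). In each of these 5 groups the remaining arrays had the same sign as the array that stood apart.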

How the results depend on the processing

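The hypoxia count of 30 (42.4% of all features) lay between 24 (36.4%) and 40 (54.1%) under the alternatives. Of 28 followed genes 20 passed with each day and each replicate left out (12 lower, 8 higher), and 14 passed under all alternatives run. Matching shares over all features were not counted. With single spots a gene is counted by its spot of lowest p. That setting cannot show disagreement between spots, and its counts can be raised by the choice. The recovery count of 2 (4.77% of all features) became 22 with a common array spread (9 higher, 13 lower), where the share of all features was 26.3%. It became 4 with all 4 arrays required (7.54%) and 10 with single spots (6.12% of all spots). With arrays fitted singly it was 28 (28.8%), and in replicates 3 and 4 it was 7 (13.3%). The difference between phases, 0 (0.0329% of all features), became 13 with arrays fitted singly (11.1%).

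Percentages here are shares of all features, or of all spots for single spots. Day 1 (15, 21.3%) became 23 with single spots (22.1%), 5 in replicates 1 and 2 (10.5%) and 23 in replicates 3 and 4 (34.2%). Day 21 (3, 4.84%) became 5 with single spots (5.01%) and 7 in replicates 3 and 4 (14.3%). Day 22 (1, 1.64%) became 5 with a common spread (1 higher, 4 lower, 5.15%). It became 3 in replicates 1 and 2 (5.73%) and 2 in replicates 3 and 4 (8.67%). Day 24 (4, 3.19%) became 19 with a common spread (10 higher, 9 lower, 21.3%) and 7 with single spots (3.69%). It became 1 in replicates 1 and 2 (1.84%) and 0 in replicates 3 and 4 (1.24%). With medians centred it gave 0 higher and 4 lower (3.44%). Day 28 (29, 33.7%) became 15 in replicates 3 and 4 (25.7%). Day 35 (1, 3.36%) became 6 with a common spread (4 higher, 2 lower, 12%) and 2 in replicates 3 and 4 (6.81%). At day 21 a common spread gave 1 higher and 3 lower (8.1%). Each count that changed moved in the same direction as its share. The causes were not tested.

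Leaving out a day gave 24 to 32 for hypoxia (32.9% to 44.9% of all features), 0 to 3 for recovery (0.0% to 5.58%) and 0 for the difference (0.00822% to 1.02%). Leaving out a replicate gave 26 to 31 (37.5% to 44.6%), 1 to 6 (3.27% to 6.14%) and 0 (0.017% to 0.161%) for these. By day it gave 8 to 15 at day 1 (10.3% to 18.3%), 13 to 19 at day 3 (16.9% to 21.3%) and 23 to 24 at day 7 (27.3% to 32.4%). At day 14 it gave 16 to 21 (18.4% to 27.1%), at day 21 0 to 1 (1.64% to 2.85%) and at day 22 0 (0.707% to 1.02%). At day 24 it gave 0 to 1 (0.542% to 1.08%), at day 28 17 to 27 (15.8% to 30.7%) and at day 35 0 (1.88% to 2.15%).

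Eif3i was at -0.041 and Eef1g at -0.14 over hypoxia in replicates 3 and 4, the reverse of their main sign. Signs also reversed for single spots of Rars2 (0.23), Sars (0.23) and Eif4h (0.36) over hypoxia and of Eef1a1 over recovery (0.34), and in replicates 1 and 2 for Mars2 (-0.20) and Tars (0.17) over hypoxia.

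The replicate numbers are shared by all days, but same-numbered arrays of different days correlated between -0.15 and 0.71 (median 0.38) in their deviations, some below the limit of 0.1 for pairing, and 15 of 36 correlated best with their own number. The median was 0.40 with the other number of the same replicate pair, so arrays group across days by pair (1 and 2 against 3 and 4) rather than by single number. Across pairs it was -0.40. That sign follows from the value within pairs, because the deviations of a day cancel out. A replicate block on arrays fitted singly gave 40 for hypoxia (54.1% of all features), 30 for recovery (35.6%) and 14 for the difference (14.7%). At single days a replicate block gave 5 at day 21 (8.5%) and 3 at day 22 (2.93%). The files used hold no intensities, so signal over background could not be weighed.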

Other observations

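Spots with several gene symbols were left out of the set, and 4 of them name one of these genes. The spot for Gm8300, Gm5788 and Eif1a averaged -0.30 over hypoxia and -0.18 over recovery. The spot shared by Eef2 and its pseudogene Eef2-ps2 averaged 0.14 and -0.18, with 0.47 at day 14 and -0.47 at day 28. The spot shared by Kars and Gabarapl2 averaged 0.11 in both phases, and that of Rab3gap2 and Iars2 averaged -0.39 and -0.09. These are values of single spots with no test.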
